A study of Mus musculus with 6 samples.

Results

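The genes described here are the 9 core genes of the Hedgehog pathway: the ligands Ihh, Dhh and Shh, the receptor Ptch1, the transducer Smo, the transcription factors Gli1, Gli2 and Gli3, and the ligand-binding inhibitor Hhip. They were chosen by symbol, as 9 of the 18193 genes that the array names, and 21 of its 45101 probe sets carried one of these symbols. Expression was measured on 6 arrays, 1 per sample. The 3 tumor samples came from separate granulosa cell tumors of untreated Smad1/5/8 mutant mice. Smad1, Smad5 and Smad8 are the transcription factors of bone morphogenetic protein signalling. The sources used here do not give the strain, age or sex of these mice, nor how and in which cells the genes were mutated. The 3 wild-type samples were granulosa cells isolated from C57BL/6J;129S5/SvEvBrd females aged 21 days. These females had been injected with pregnant mare serum gonadotropin (PMSG), which stimulates follicle growth, for 44 to 46 hours, and each sample pooled 2 to 3 of them, so the wild-type spread is one between pools and not between females. The comparison asked how expression in the mutant tumors differs from that in normal granulosa cells.

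Granulosa cells line the ovarian follicle around the oocyte and make estrogen. In the Hedgehog pathway, a secreted ligand binds Ptch1 and lifts its inhibition of Smo. Smo then shifts Gli2 and Gli3 from repressor to activator forms, which induce Gli1, Ptch1 and Hhip, so that Gli1 transcript is a common readout of the pathway and Ptch1 and Hhip feed back on it. In the mouse ovary, granulosa cells of growing follicles make Ihh and Dhh, and the theca and interstitial cells around them respond.

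Promoter sequences were shown for 2 genes that were higher in tumors, Ptch1 and Gli2, and for 2 that were lower, Ihh and Dhh. Each runs 5′ to 3′ from 250 bases before to 50 bases after a start site of the gene in RefSeq (build GRCm38.p6). Capitals mark the GC box, GGGCGG on either strand.
Ptch1, chr13:63565686-63565985, minus strand: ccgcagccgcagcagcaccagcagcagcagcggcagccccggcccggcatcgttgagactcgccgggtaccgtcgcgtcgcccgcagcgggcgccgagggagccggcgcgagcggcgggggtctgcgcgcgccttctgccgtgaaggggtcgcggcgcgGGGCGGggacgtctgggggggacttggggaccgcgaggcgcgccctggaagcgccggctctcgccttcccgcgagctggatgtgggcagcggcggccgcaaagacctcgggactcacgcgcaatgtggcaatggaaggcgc
Gli2, chr1:119053570-119053869, minus strand: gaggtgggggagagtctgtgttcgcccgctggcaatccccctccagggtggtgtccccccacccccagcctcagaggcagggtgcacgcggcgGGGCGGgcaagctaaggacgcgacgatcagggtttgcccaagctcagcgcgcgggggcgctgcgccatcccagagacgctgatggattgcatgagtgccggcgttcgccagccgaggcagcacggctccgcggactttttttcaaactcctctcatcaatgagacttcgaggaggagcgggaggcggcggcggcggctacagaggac
Ihh, chr1:74951623-74951922, minus strand: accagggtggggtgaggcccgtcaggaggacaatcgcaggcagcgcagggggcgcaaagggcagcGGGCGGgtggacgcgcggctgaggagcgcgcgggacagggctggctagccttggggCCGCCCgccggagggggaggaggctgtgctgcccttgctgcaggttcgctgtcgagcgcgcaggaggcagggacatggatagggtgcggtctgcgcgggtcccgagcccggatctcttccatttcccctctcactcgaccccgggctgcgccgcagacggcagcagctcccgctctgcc
Dhh, chr15:98898491-98898790, minus strand: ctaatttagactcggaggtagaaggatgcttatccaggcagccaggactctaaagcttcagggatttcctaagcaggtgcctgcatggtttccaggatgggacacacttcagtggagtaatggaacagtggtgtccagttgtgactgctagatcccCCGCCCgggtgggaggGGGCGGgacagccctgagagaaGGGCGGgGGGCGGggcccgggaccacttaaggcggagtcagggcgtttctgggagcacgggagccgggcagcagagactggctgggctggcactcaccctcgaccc
A promoter sequence was available for 7 of the 9 genes. There was none for Gli1 and Shh, so their promoters were not searched. The Gli binding motif GACCACCCA, searched on both strands, was in none of these 7 promoters, as given or with at most 1 mismatch. Of 32841 mouse promoters of the same length, 0.253% held it as given and 6.74% with at most 1 mismatch. The search with a mismatch and that for the GC box were added after the Gli motif as given had been found in none. The GC box stood 4 times in the Dhh promoter, 2 times in that of Ihh and 1 time each in those of Ptch1 and Gli2. It was held by 35.7% of all promoters. These matches describe the letters of the windows and show no binding.

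A gene was called at an adjusted p under 0.05 in limma, a linear model fitted to all genes (Benjamini-Hochberg adjustment). By this measure 14.5% of the 11611 genes were higher in tumors and 12.6% lower. Of the 9 Hedgehog genes, each represented by its brightest probe set, 4 were higher (Gli1, Gli2, Ptch1 and Smo) and 3 lower (Ihh, Dhh and Gli3), while Shh and Hhip were not called. With any 1 array left out, 4 or 5 genes were higher and only 1 or 2 lower, with 1, Ihh, without tumor replicate 2 or wild-type replicate 1. The higher genes encode the receptor, the transducer and 2 Gli factors. The 3 tumors lay above all wild-type samples in 4 of the 9 genes and below them in 3. Over all tested genes, 23.7% lay above and 22.6% below in this way. Under a scaling of the arrays to the hybridisation controls, which lowered the median of all genes by 0.98 on the log2 scale, the directions of Smo and Shh flipped (Smo -0.08, Shh -0.72) and those of the other 7 genes did not. With that scaling, 416 genes were higher and 7544 lower, against 1686 and 1468 here. Counts for gene lists under that scaling are to be read beside these 416 and 7544 of 11611.

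**Figure D1:**
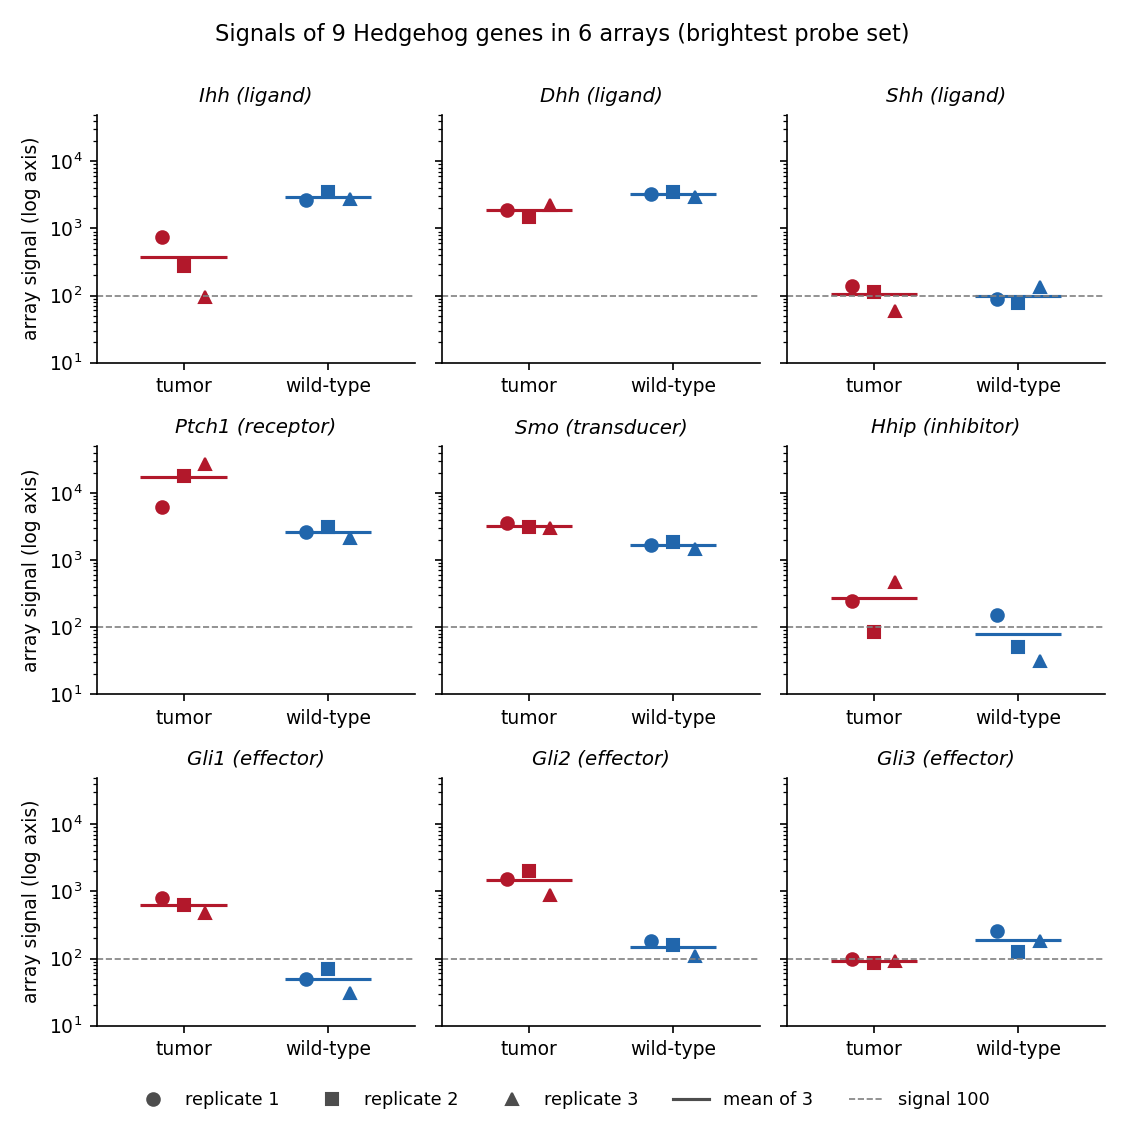
Array signals of the 9 genes on a log axis, tumors to the left of wild-type samples; points are single arrays, bars the mean of 3, and the dashed line the signal minimum of 100. The groups were apart in Gli1, Gli2, Ptch1, Smo, Ihh, Dhh and Gli3, and overlapped in Shh and Hhip; scaled to the hybridisation controls, Smo and Shh changed direction.

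Array medians ran from 100.6 to 127.8 after scaling to a trimmed mean of 500. The minimum used for testing was a signal of 100, which 22599 to 25049 probe sets reached, depending on the array. The 27 probe sets for bacterial poly-A control transcripts, a guide to empty probe sets, had a median signal of 7.5 and reached at most 101. Precision was limited by the number of arrays, 3 per group. Of the 7 probe sets for the mutated genes, 5 were higher in every tumor than in any wild-type sample, and the 1 of Smad9, the current symbol of Smad8, stayed below 100 on every array. Smad1 at its brightest probe set read 2076, 2861 and 2354 in tumors and 830, 856 and 926 in wild-type samples, and the brightest of Smad5 read 2435, 2815 and 3108 in tumors and 1246, 1078 and 1273 in wild-type samples. Their positions relative to the mutations are unknown here, so they do not check the genotype. Tissue and handling differed too: tumor tissue kept in RNAlater was compared with isolated, PMSG-primed cells, and the signals came from GCOS for tumors and MAS5 for wild-type samples. Genotype cannot be told apart from these differences, nor, in such bulk samples, fewer cells of a type from less transcript per cell.

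The ligand gene Ihh, which encodes Indian hedgehog, was lower in tumors and varied most among them. Its single probe set, 1450704_at, read 744, 280 and 96.6 in tumor replicates 1, 2 and 3, against 2652, 3521 and 2744 in the wild-type samples. Every tumor lay below every wild-type sample, and the tumor signals spanned 7.7-fold, against 1.33-fold in wild-type samples. The log2 fold change was -3.24 (limma SE 0.58, adjusted p = 0.0082, n = 3 per group), and it ranged from -3.90 to -2.60 when 1 array at a time was left out. The SD of Ihh among tumors was 1.30 on the log2 scale, at percentile 99.0 of all tested genes.

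Dhh, the gene of Desert hedgehog, was measured by 2 probe sets, and both were lower in tumors. The brighter one, 1434959_at, read 1917, 1471 and 2237 in tumors and 3230, 3498 and 2926 in wild-type samples. The other, 1422127_at, read 195, 238 and 376 in tumors and 848, 626 and 589 in wild-type samples. In neither did the groups overlap. The log2 fold change was -0.79 for the brighter probe set (SE 0.19, limma adjusted p = 0.0221). With every passing probe set tested on its own, where 11.0% of 23585 probe sets were higher and 12.0% lower, the dimmer one changed by -1.28 (SE 0.26, limma adjusted p = 0.0143). The call for the brighter probe set was lost without tumor replicate 2 (adjusted p = 0.0553), wild-type replicate 1 (0.0795) or wild-type replicate 2 (0.0667), with no filter on low signals (0.0524) and with the replicate number as a block (0.0541).

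Shh, the gene of Sonic hedgehog, was near or below the signal minimum in both groups. The probe set 1436869_at read 140, 115 and 59.8 in tumors and 89, 77 and 133 in wild-type samples, with overlapping groups (log2 fold change 0.03, SE 0.27, limma adjusted p = 0.947). The other Shh probe set stayed at or below 40 on every array and did not pass the filter. At these signals a difference in Shh was not detectable.

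Ptch1, the receptor that holds Smo inactive without ligand, was higher in tumors by all of its 3 probe sets. The brightest, 1428853_at, read 6060, 17963 and 27114 in tumor replicates 1, 2 and 3, and 2607, 3087 and 2092 in wild-type samples. The tumors lay above all wild-type samples but were 4.47-fold apart among themselves, a log2 SD of 1.11, at percentile 98.3 of all tested genes. Its log2 fold change was 2.47 (SE 0.51, limma adjusted p = 0.0136), and it ranged from 2.01 without tumor replicate 3 to 3.09 without tumor replicate 1. The probe set 1450824_at read 209, 593 and 840 in tumors and 109, 84.4 and 119 in wild-type samples, with the same order of the 3 tumors. The probe set 1439663_at read 590, 816 and 750 in tumors and 198, 158 and 106 in wild-type samples. In each of the 3 probe sets tumor replicate 1 was the lowest tumor, but in 1439663_at it was the highest with the arrays scaled to the hybridisation controls. Tested on their own, the brightest changed by 2.47 and the other two by 1.91 and 2.03 (limma adjusted p = 0.0151, 0.022 and 0.00205).

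Smo, the membrane protein that passes the signal on to the Gli factors, was higher in tumors by its brightest probe set only, and not at all (-0.08) with the arrays scaled to the hybridisation controls. That probe set, 1427049_s_at, read 3572, 3112 and 3041 in tumors and 1674, 1855 and 1454 in wild-type samples, with no overlap (log2 fold change 0.95, SE 0.16, limma adjusted p = 0.006). The probe set 1427048_at, designed from the same source sequence, read 2539, 1420 and 2148 in tumors and 1406, 1587 and 1172 in wild-type samples. There the groups overlapped and the change was not called (log2 fold change 0.51, SE 0.25, limma adjusted p = 0.175). The third Smo probe set was below 100 on every array. Relative to the median of all genes, the Smo change was 0.90 under the scaling to hybridisation controls, close to the value without it.

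Hhip, a membrane protein that binds and sequesters the ligands, had 4 probe sets with mean signals in tumors from 156 to 268. The brightest, 1455277_at, read 247, 84.7 and 474 in tumors and 150, 51.3 and 31.4 in wild-type samples, and the groups overlapped. Its log2 fold change of 1.37 was not called (SE 0.59, limma adjusted p = 0.127), but it passed at 1.93 without tumor replicate 2 (adjusted p = 0.0385). All 4 probe sets had positive log2 fold changes, from 0.34 to 1.37, and none was called. Tumor replicate 2 was the lowest tumor and tumor replicate 3 the highest in each, except that tumor replicate 1 was the highest in 1421426_at with the arrays scaled to the hybridisation controls. Under that scaling 1421426_at differed from its wild-type mean by 0.41, -1.7 and -0.06 in tumor replicates 1, 2 and 3. The probe set 1438083_at then differed by 0.07, -0.79 and 0.4, so neither was higher in all tumors.

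Gli1, the transcription factor whose gene is itself induced by Hedgehog signalling, was below 100 in all wild-type samples and above 400 in all tumors. It read 800, 636 and 477 in tumors, against 49.2, 69.1 and 30.9 in wild-type samples. This was at least 6.24-fold higher in tumors (limma adjusted p = 0.000582), taking each wild-type array at 100. The tumors were 1.68-fold apart, a log2 SD of 0.36, at percentile 71.1 of all tested genes.

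Gli2, the main activator among the Gli factors in mouse embryos, was also higher in tumors. The probe set 1459211_at read 1551, 2025 and 894 in tumors and 184, 161 and 108 in wild-type samples. The probe set 1446086_s_at, designed from the same source sequence, read 960, 1046 and 525 in tumors and 115, 90.4 and 20.9 in wild-type samples. Every tumor lay above every wild-type sample in both, and tumor replicate 3 was the lowest tumor in both. The log2 fold change was 3.00 for the brighter one (SE 0.32, limma adjusted p = 0.00137) and 3.10 for the other (SE 0.43).

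Gli3, the main repressor among the Gli factors, gave no stable call. The probe set 1456067_at read 97.9, 86 and 91.4 in tumors and 258, 125 and 184 in wild-type samples, at least 1.81-fold lower in tumors (limma adjusted p = 0.041), taking each tumor array at 100. The probe set 1455154_at read 156, 124 and 48 in tumors and 157, 67.2 and 123 in wild-type samples, and there the groups overlapped (limma adjusted p = 0.866). The call was lost under 10 of 16 alternatives, among them the fits without any 1 of the tumors or without wild-type replicate 1 or 3, with adjusted p up to 0.259 over all 16. The third Gli3 probe set was below 100 on every array.

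**Figure D2:**
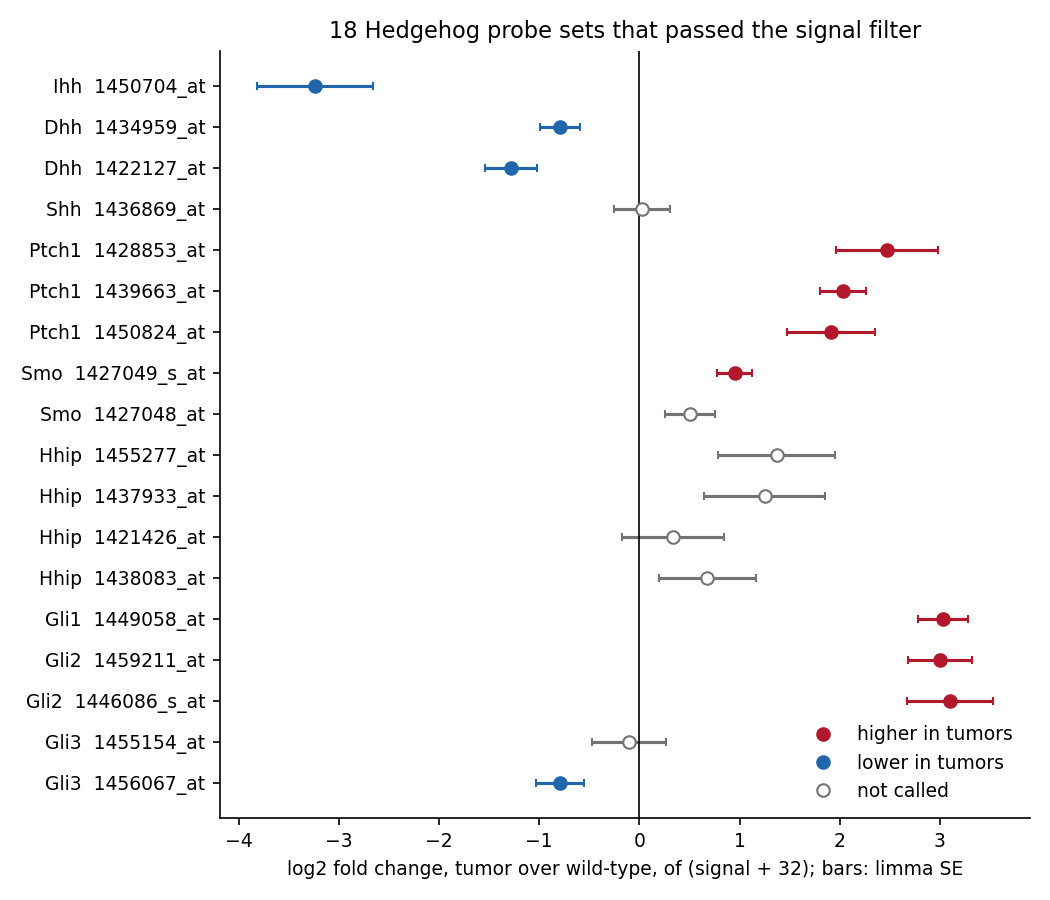
Log2 fold changes of tumor over wild-type with limma SE for the 18 Hedgehog probe sets that passed the signal filter; filled points were called and hollow points were not. Of the 18, 7 were higher, 4 lower and 7 not called. Among the brightest probe sets of each gene, those of Smo and Shh changed direction with the arrays scaled to the hybridisation controls. Under that scaling, tumors lay on both sides of the wild-type mean in every Hhip probe set.

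Of the 21 probe sets, 18 passed the filter and 3 did not, 1 each of Shh, Smo and Gli3. A probe set can pass through the group where it is bright. That of Gli1 passed only through the tumors, and the called one of Gli3, 1456067_at, only through the wild-type samples. Genes given with an "at least" fold elsewhere also passed through 1 group only. In Ptch1, Dhh and Gli2 all passing probe sets of the gene gave the same call, and in Smo and Gli3 1 of the 2 passing probe sets was called.

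Levels of different genes cannot be compared between probe sets, so ligand, receptor and effector were related array by array through each gene's difference from its own wild-type mean, on the log2(signal + 32) scale. In tumor replicate 1, Ihh differed by -1.94, Ptch1 by 1.23 and Gli1 by 3.38. In tumor replicate 2, these differences were -3.26, 2.79 and 3.06. In tumor replicate 3, they were -4.54, 3.39 and 2.67. The tumor with the most Ihh thus had the least Ptch1 and the most Gli1, and the tumor with the least Ihh had the most Ptch1 and the least Gli1. By these probe sets Gli1 and Ptch1, both induced by Gli factors in other tissues, ranked the tumors in opposite orders. The Ptch1 probe set 1450824_at ranked them as the brightest did, but 1439663_at did not, with differences of 1.77, 2.22 and 2.10 in tumor replicates 1, 2 and 3. Dhh did not follow Ihh, with differences of -0.73, -1.11 and -0.51 in tumor replicates 1, 2 and 3. Its dimmer probe set, 1422127_at, ranked them in the reverse order of Ihh, with differences of -1.65, -1.4 and -0.8. Gli2 ranked tumor replicate 2 first, with differences of 3.14, 3.51 and 2.36. Smo differed by 1.10, 0.90 and 0.87, ranking the tumors as Ihh and Gli1 did, with tumor replicates 2 and 3 nearly equal. Its probe set 1427048_at ranked them otherwise, with differences of 0.87, 0.04 and 0.63. Scaled to the hybridisation controls, the brightest probe sets of Ihh, Ptch1, Smo and Gli1 kept these orders, while Gli2 (2.65, 2.42 and 1.07) and Dhh (-1.29, -2.27 and -1.90) then had tumor replicate 1 first. Under that scaling the Ptch1 probe set 1439663_at ranked the tumors as Gli1 did (1.29, 1.15 and 0.82). Without that scaling, the brightest probe sets of these 6 genes stayed within 0.37 of their mean in wild-type samples. With 3 tumors these orders are a description and carry no test, and the replicate numbers have no order of their own.

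**Figure D3:**
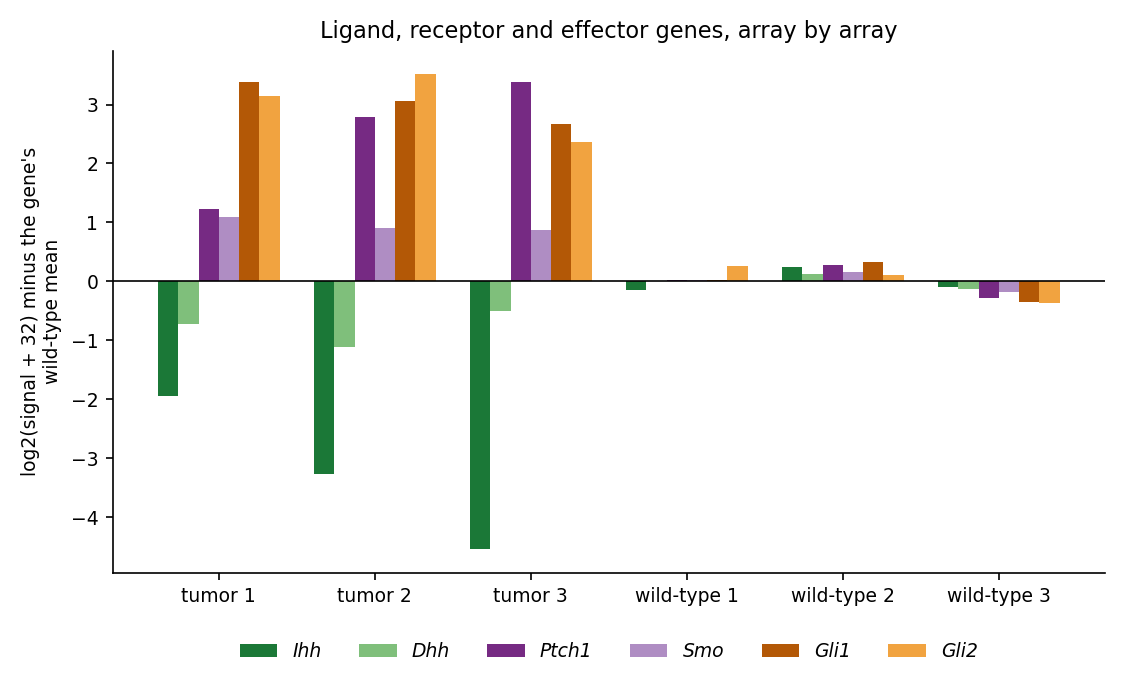
Difference of each array from the gene's wild-type mean on the log2(signal + 32) scale, for 2 ligands, Ptch1, Smo and 2 Gli factors, tumors to the left of wild-type samples. Ihh was lowest and Ptch1 highest in tumor replicate 3 (-4.54 and 3.39), while Gli1 was highest in tumor replicate 1 (3.38); scaled to the hybridisation controls, Smo was no longer higher in tumors.

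Genes that act beside the core members in making, releasing or receiving the ligands were taken from a list of 14, of which 13 were on the array and 10 were tested. Of these, 4 were higher, 2 lower and 4 not called, with a median log2 fold change of 0.43 against 0 over all tested genes. Of all tested genes, 14.5% were higher and 12.6% lower. Scaled to the hybridisation controls, 0 were higher and 4 lower, where 416 of all 11611 genes were higher and 7544 lower. Boc, a co-receptor for the ligands, averaged 803 ± 252 in tumors and 245 ± 23.6 in wild-type samples (SD, n = 3 each), a rise of 1.54 in log2 units (SE 0.25, limma adjusted p = 0.00596). Gas1, another ligand-binding co-receptor, rose to 1569 ± 230 in tumors, against 694 ± 198 in wild-type samples. The third co-receptor, Cdon, read 694, 1482 and 3152 in tumors and 631, 757 and 664 in wild-type samples and was not called (log2 fold change 1.09, limma adjusted p = 0.136). Of the secreted Scube proteins, which help release Shh from cells, Scube2 rose by 1.19 (SE 0.28) and Scube1 fell by 1.24 (SE 0.32) on the log2 scale. Hhat, the enzyme that palmitoylates the ligands, rose by 0.61 (SE 0.18, limma adjusted p = 0.0403) but changed sign under that scaling, and the glypican gene Gpc4 fell by 0.91 (SE 0.17). Without single arrays, the higher count ranged from 2 to 4 and the lower from 1 to 2. The lower values came without tumor replicate 2 and wild-type replicates 1 and 3 for the higher count, and without tumor replicate 1 and each wild-type replicate for the lower count.

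Genes that carry the signal from Smo to the Gli factors or regulate them numbered 21 tested. Of these, 4 were higher, 0 lower and 17 not called (median log2 fold change 0.13). Over all genes, 14.5% were higher and 12.6% lower. Scaled to the hybridisation controls, 0 of the 21 were higher and 12 lower, and the 4 named here as higher changed sign. Under that scaling 416 of all 11611 genes were higher and 7544 lower, with a median log2 fold change of -0.98. Sufu, which binds the Gli factors and restrains them, averaged 1286 ± 242 in tumors and 730 ± 32.4 in wild-type samples (log2 fold change 0.77, SE 0.18, limma adjusted p = 0.0185). Spop, an adaptor of the ubiquitin ligase that degrades Gli2 and Gli3, rose by 0.57 (SE 0.17). Prkacb, a catalytic subunit of protein kinase A, which phosphorylates the Gli factors, rose by 0.50 (SE 0.13), and the ubiquitin ligase gene Mib1 by 0.85 (SE 0.16). Kif7, the kinesin that organises the Gli factors at the cilium, was not called (log2 fold change -0.45, limma adjusted p = 0.141). The higher count fell to 2 without tumor replicate 1 or 2 and to 1 without wild-type replicate 1 or 3. It was 2 with no filter on low signals, with the filter at 50, with the mean of a gene's probe sets and with the replicate number as a block.

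Mammalian Hedgehog signalling runs through the primary cilium. Of 22 tested genes of cilium assembly, 1 was higher, 2 lower and 19 not called, with a median log2 fold change of -0.02, and under the scaling to hybridisation controls 0 were higher and 17 lower. The shares without that scaling lay below the 14.5% and 12.6% of all genes. With it, 416 of all 11611 genes were higher and 7544 lower. Dync2li1, of the motor that carries cargo back from the ciliary tip, averaged 1898 ± 217 in tumors and 939 ± 48.5 in wild-type samples (SE 0.15, limma adjusted p = 0.00433), a log2 fold change of 0.99 that was -0.04 under that scaling. Bbs7, a subunit of the BBSome that carries ciliary membrane proteins, fell by 0.56 (SE 0.15), and Tmem67, a ciliary transition zone gene, was at least 1.40-fold lower in tumors (limma adjusted p = 0.0257). Both lower calls were lost without tumor replicate 2 or 3 or wild-type replicate 1 or 3. The intraflagellar transport gene Ift88 had a log2 fold change of -0.22 (limma adjusted p = 0.432).

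Genes that Gli factors are known to induce in other tissues were read from a list of 35, of which 30 were on the array and 23 were tested. Of these, 8 were higher, 2 lower and 13 not called, with a median log2 fold change of 0.64. Of all 11611 genes, 14.5% were higher and 12.6% lower. Scaled to the hybridisation controls, 4 of the 23 were higher and 6 lower, where 416 of all genes were higher and 7544 lower. Osr2, a transcription factor of mesenchyme, averaged 1713 ± 809 in tumors and 137 ± 22.1 in wild-type samples (log2 fold change 3.27, SE 0.33, limma adjusted p = 0.00122). Igfbp3, a binding protein of insulin-like growth factors, rose by 3.40 (SE 1.00, limma adjusted p = 0.0429) and read 267, 7007 and 1292 in tumors, against 84.4, 99.6 and 123 in wild-type samples. Tumor replicate 2 thus carried most of its mean. Pdgfra, a growth factor receptor that also stands on the fibroblast list, rose by 2.42 (SE 0.37). Among the other called genes were Snai1 (log2 fold change 1.85), Nr2f2 (1.49), Bcl2 (1.27), the cyclin gene Ccnd1 (1.22) and Rab34 (0.97). Under the scaling to hybridisation controls Snai1 (1.16) was still called. Nr2f2 (0.48), Bcl2 (0.30), Ccnd1 (0.24) and Rab34 (-0.07) then were not. Nr2f2 also stands on the theca list. The 2 lower genes, Grem1 and Fst, are both expressed by granulosa cells. Grem1 averaged 99.9 ± 63.6 in tumors and 2823 ± 411 in wild-type samples, a log2 fold change of -4.54 (SE 0.34), and Fst fell by 0.99 (SE 0.20). Mycn, Ccnd2 and Bmp4 were not called, with log2 fold changes of 0.25, 0.51 and 0.64.

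Many markers of fibroblasts, smooth muscle and pericytes, macrophages and endothelium were higher in tumors, as Gli1 and Gli2 were. Among all tested genes 14.5% were higher and 12.6% lower. Of 13 tested fibroblast markers, 12 were higher, and the summed signal of the 13 on the array was 53797 to 81627 in tumors and 19025 to 22407 in wild-type samples. Of 11 tested smooth muscle and pericyte markers, 10 were higher, with sums of 20671 to 40099 in tumors and 6552 to 8687 in wild-type samples. All 10 tested macrophage markers and 6 of 12 endothelial markers were higher, with sums of 13052 to 15869 and 4874 to 8706 in tumors, against 2255 to 2575 and 2135 to 2948 in wild-type samples. Under the scaling to hybridisation controls, 7 fibroblast, 8 smooth muscle and pericyte, 5 macrophage and 4 endothelial markers were higher. Their part in the Hedgehog changes was not tested. The fibroblast sum was 69482, 81627 and 53797 in tumor replicates 1, 2 and 3, and the smooth muscle sum 37151, 40099 and 20671. Both ranked the tumors as Gli2 did, with tumor replicate 2 first and 3 last. The macrophage sum was 15869, 13093 and 13052, highest in tumor replicate 1 as Gli1 was, with tumor replicates 2 and 3 nearly equal. The endothelial sum was 4874, 8706 and 5140, an order that neither Gli1 nor Gli2 had. With the arrays scaled to the hybridisation controls, Gli2 and the fibroblast, smooth muscle and macrophage sums all ranked the tumors as Gli1 did. So did the sums of the transducer, cilium, Gli-induced, granulosa, Sertoli and surface epithelium lists. Those of the reception, theca, oocyte and endothelial lists did not. That scaling itself shifted tumor replicates 1, 2 and 3 by -0.0358, -0.6559 and -0.8832 in log2 units, so this shared order is not particular to these cell types. The lowest fibroblast sum in tumors, 29167, then lay within the 27537 to 31299 of wild-type samples. The lowest smooth muscle sum in tumors, 11207, likewise lay within the 10156 to 11687 of wild-type samples. The lowest endothelial sum in tumors, 2787, then lay below the 3304 to 3966 of wild-type samples. Examples with large changes were Postn (log2 fold change 3.57) and Lum (2.90) in fibroblasts, Rgs5 (3.73) and Cnn1 (2.73) in smooth muscle and pericytes, C1qc (3.50) and C1qa (3.24) in macrophages, and Emcn (2.03) and Flt1 (at least 1.78-fold higher) in endothelium.

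Markers of theca and interstitial cells, the cells that answer granulosa ligands in the ovary, went both ways, with 3 higher, 3 lower and 5 not called of 11 tested. The shares over all tested genes were 14.5% higher and 12.6% lower. The steroid enzyme genes Cyp17a1 and Cyp11a1 had log2 fold changes of -4.85 (SE 0.62) and -4.45 (SE 0.74), and Nr5a1, which controls such genes, fell by 1.09. The transcription factor genes Tcf21 and Nr2f2 and the ligand gene Wnt5a rose by 2.83, 1.49 and 1.66. Scaled to the hybridisation controls, 1 theca marker was higher and 6 were lower, where 416 of all 11611 genes were higher and 7544 lower. Cyp17a1 read 290, 101 and 29.5 in tumors and 5950, 2179 and 4717 in wild-type samples, so the wild-type granulosa samples were not free of a theca transcript. The summed signal was 30107 to 81331 in tumors and 84474 to 101820 in wild-type samples. Much of the wild-type sum came from Hsd3b1 (36586, 41232 and 46353) and Ephx2 (16477, 13364 and 17218). Cyp11a1 (12207, 10750 and 16017) and Aldh1a1 (8961, 11699 and 12088) followed. All of these genes were bright in these granulosa samples. The falls in this list therefore do not tell theca cells from granulosa cells. Of 15 granulosa markers, 1 was higher (Amh) and 6 lower, with sums of 134181 to 137576 in tumors and 233320 to 264781 in wild-type samples. Scaled to the hybridisation controls, 1 was higher and 13 were lower. The largest changes among them were in the activin subunit genes Inhba (-5.42) and Inhbb (-3.95). None of these granulosa markers stayed below 100 on all arrays.

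Other lists moved less evenly, beside 14.5% higher and 12.6% lower among all tested genes. Of 6 tested oocyte markers 5 were lower, among them Zp3 (at least 2.67-fold lower) and Dazl (at least 1.81-fold lower). Zp1, Zp2, Zp3 and Dazl were below 100 in all tumors and passed the filter only through the wild-type samples. The filter thus favoured a lower call for them, and the count is no test of direction. The oocyte sums were 574 to 770 in tumors and 1149 to 1871 in wild-type samples, and Bmp15, Nobox and Ddx4 stayed below 100 throughout. Of 5 tested Sertoli markers, 1 was higher (Ptgds, log2 fold change 3.65) and 1 lower (Dhh itself). Sox9 was not called (log2 fold change 1.45, limma adjusted p = 0.0624), and Dmrt1, Sox8 and Tsx stayed below 100 throughout. The Sertoli sums were 7267 to 9524 in tumors and 4103 to 4276 in wild-type samples. Most of the tumor sums came from Ptgds, which read 7279, 5337 and 5102 in tumors and 479, 305 and 557 in wild-type samples. Dhh, at 3230, 3498 and 2926, made most of the wild-type sums. Of 10 surface epithelium markers, Wt1, which granulosa cells also express, rose by 2.23 and Upk3b fell by 1.05, with sums of 5141 to 7121 in tumors and 4340 to 6540 in wild-type samples. Scaled to the hybridisation controls, 1 surface epithelium marker was higher and 6 lower, as were 1 and 3 Sertoli markers and 0 and 6 oocyte markers. RNA quality also differed in 1 of 2 measures: the 3′ over 5′ signal ratio of the Actb control transcript was, in log2, 0.808 ± 0.209 in tumors and 0.447 ± 0.193 in wild-type samples, and that of Gapdh was -0.365 ± 0.113 in tumors and -0.391 ± 0.0653 in wild-type samples (SD, n = 3). Its part in the Hedgehog changes was not tested.

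**Figure D4:**
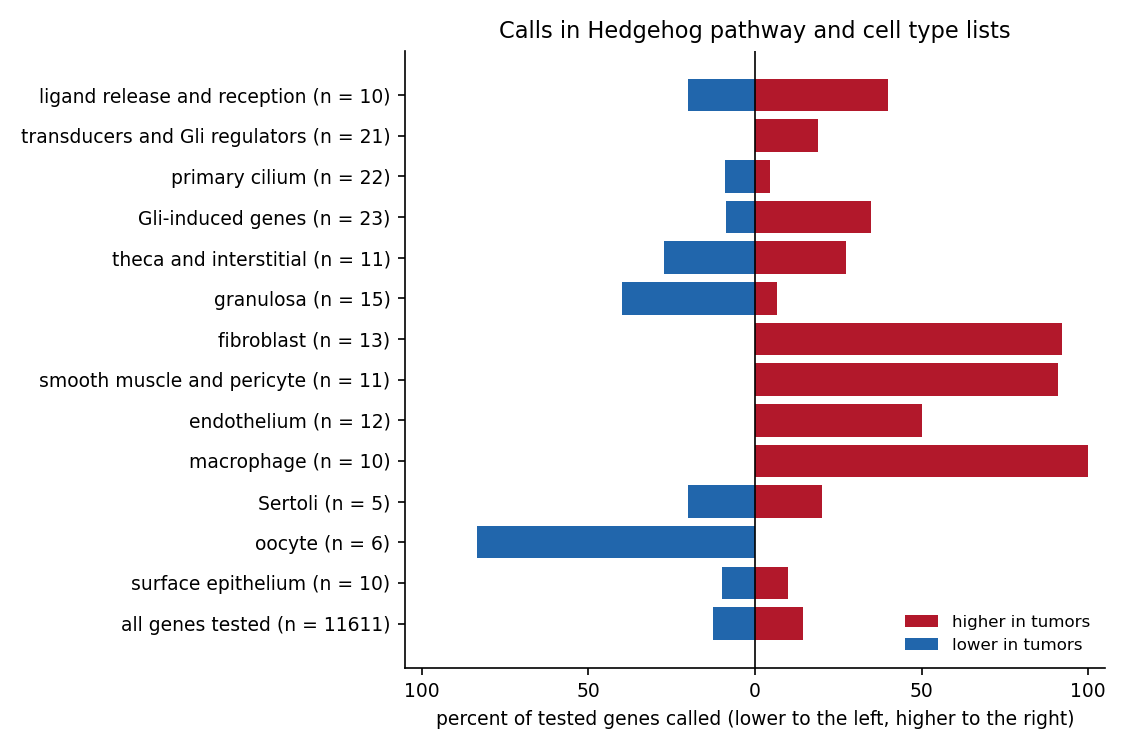
Percent of tested genes called higher (right) or lower (left) in tumors in the 4 Hedgehog pathway lists, the 9 cell type lists and all 11611 genes; the number tested stands beside each name. Gli-induced genes (8 of 23 higher) and ligand release and reception genes (4 of 10) stood beside fibroblast (12 of 13) and macrophage (10 of 10) markers. Of all genes, 14.5% were higher. Scaled to the hybridisation controls, 4 Gli-induced genes and 0 reception genes were higher.

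The genes whose pattern over the 6 arrays was closest to a called member were found by the mean absolute difference of log2 values centred on each gene's mean. Closest to Ihh was Fshr, the receptor for follicle-stimulating hormone, at 0.222, followed by Fhdc1 (0.315) and Atp4b (0.356). Fshr averaged 667 in tumors and 5686 in wild-type samples. Closest to Dhh were Reck (0.072), Obsl1 (0.074) and Zfp101 (0.077). Closest to Ptch1 were Rassf5 (0.184), Dleu7 (0.261) and Osbpl3 (0.320), of which Rassf5 averaged 964 in tumors and 161 in wild-type samples. Gli1 was most like Cacna1c, a calcium channel subunit gene (0.154), the chromatin protein gene Hmga2 (0.182) and Smtnl2 (0.214). Hmga2 averaged 1233 in tumors and 126 in wild-type samples. Gli2 was most like the matrix proteoglycan gene Bgn (0.140), Zfp423 (0.141) and Cpxm1 (0.141), and Bgn averaged 6903 in tumors and 656 in wild-type samples. Smo was most like P3h3 (0.049), Zfpm2 (0.050) and Ctnnd1 (0.063), and Gli3 was most like Mir670hg (0.082), Rnf121 (0.083) and Parpbp (0.084). No list of the 3 closest genes was shared between members.

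Over 17 other ways of scaling, filtering and fitting, with single arrays left out among them, Ihh, Gli1, Gli2 and Ptch1 kept their calls throughout. The smallest changes were -2.60 for Ihh, without tumor replicate 3, and 1.43 for Ptch1, 2.21 for Gli1 and 2.05 for Gli2 with the arrays scaled to the hybridisation controls, on the log2 scale.

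**Figure D5:**
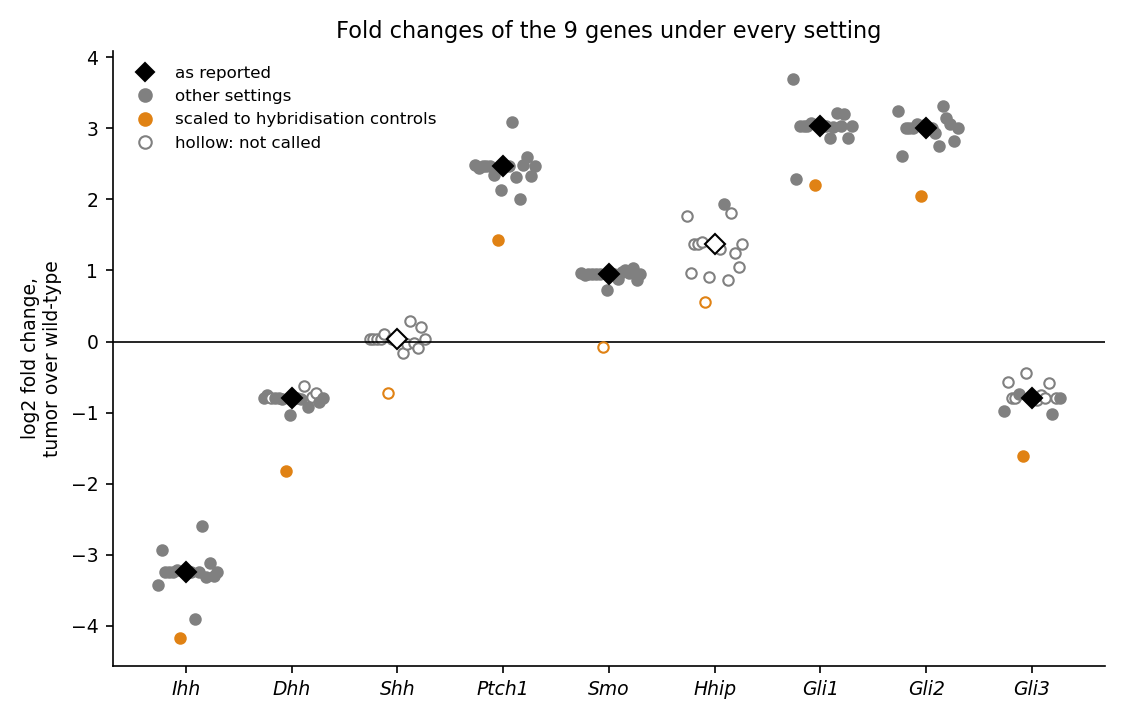
Log2 fold changes of the 9 genes, tumor over wild-type, as reported (black) and under the other settings (grey, and orange for the scaling to the hybridisation controls); hollow points were not called. Ihh, Gli1, Gli2 and Ptch1 were called under every setting shown, while Smo fell to -0.08 and Shh to -0.72 under the scaling to hybridisation controls.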

How the data were processed

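The series table as deposited held intensities on a linear scale. The submitters' processing notes name GCOS for tumors and MAS5 for wild-type samples, without a version. Each array was scaled to a trimmed mean of 500 (2% left out at each end), which the deposited values already had. Probe sets were named by GEO's platform annotation: 34945 had 1 symbol, 932 several, 9160 none, and 64 were controls. Of the 34945, 34741 had a gene identifier in RefSeq (GRCm38.p6), which changed 0 symbols.

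Values were tested as log2(signal + 32). The filter kept probe sets that reached a signal of 100 on 3 or more of 6 arrays, and a gene was represented by its brightest passing probe set. The 2-sided test was limma's (version 3.58.1, R 4.3.3, lmFit with eBayes) on the 6 arrays without covariates, with Benjamini-Hochberg adjustment over all genes or over all passing probe sets. SE is limma's. Because 32 is added before log2, changes of dim genes are understated. "At least" folds are given where 1 group lay below 100 on all its arrays, which were then set to 100. The fit was tested on simulated data. Tables were made with Python 3.11.15, pandas 2.3.3 and matplotlib 3.10.9.

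Members and gene lists were chosen with earlier results of these data known. Named genes were the members, the 4 called genes of largest change in each pathway list with the largest in the other direction where these all went 1 way, the 2 largest changes in each cell type list, and the 3 closest patterns for each called member. Cdon, Hhat, Gpc4, Kif7, Ift88, Snai1, Nr2f2, Bcl2, Ccnd1, Rab34, Fst, Mycn, Ccnd2, Bmp4, Nr5a1, Tcf21, Wnt5a, Hsd3b1, Ephx2, Aldh1a1, Amh, Zp1, Zp2, Bmp15, Nobox, Ddx4, Dmrt1, Sox8, Tsx, Smad1, Smad5 and Smad9 were named after their values were seen. Nothing says whether the samples of a group shared a culture or day, so p-values measure the spread between these samples. Same-numbered tumor and wild-type arrays had correlations of deviations from -0.045 to 0.09, so the numbers did not pair them.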

Additional observations from a re-analysis of the deposited data

How the results depend on the processing

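Ihh, Gli1, Gli2 and Ptch1 kept their direction and call under all 17 alternatives, Smo under 16, Dhh under 12 and Gli3 under 6 of 16. Scaled to the hybridisation controls, Smo (-0.08) and Shh (-0.72) reversed, and the counts were 416 higher and 7544 lower genes, 0 and 4 for ligand release and reception, 0 and 12 for transducers, 0 and 17 for cilium genes, and 4 and 6 for Gli-induced genes. The median of all genes then was -0.98. The cause was not tested. With no filter on low signals, 1 member was lower (Ihh), and the counts were 1 lower reception, 2 higher transducer and 0 lower cilium genes. Higher transducer genes numbered 2 with the filter at 50 and with the mean of all passing probe sets. Lower cilium genes numbered 1 with the filter at 200 and with an intensity trend. With every passing probe set tested, which gives more features, 2584 were higher and 2821 lower. With the replicate number as a block, 1464 genes were higher and 1138 lower, Dhh lost its call (adjusted p = 0.0541), and 2 higher transducer and 1 lower cilium gene were left; the samples share only a number, and the best-correlated wild-type array had the same number in 2 of 3 tumors.

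Without 1 array at a time, 866 (without wild-type replicate 1) to 1704 genes were higher and 662 (again without wild-type replicate 1) to 1409 lower. Without wild-type replicate 3 the counts were 1092 and 880. Members numbered 4 to 5 higher and 1 to 2 lower, with 1 lower without tumor replicate 2 or wild-type replicate 1. Reception genes numbered 2 to 4 higher and 1 to 2 lower, transducers 1 to 3 higher, and cilium genes 0 to 2 lower. Shh, never called, had log2 fold changes from -0.16 to 0.29. A filter at 200 left no value for Shh, Hhip and Gli3. Signals near 100 limit Shh, Gli3 and Hhip.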
